A study of Mus musculus with 12 samples.

Results

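The genes of the glucocorticoid response followed here were 8 of the 20718 genes in the expression table of mouse testis, chosen by symbol: the receptor Nr3c1, the activating enzyme Hsd11b1, and 6 genes that glucocorticoid hormone is known to induce, Fkbp5, Tsc22d3, Sgk1, Klf9, Cebpd and Pdk4. All 8 symbols had 1 row each in the table. RNA was sequenced from testes of young ICR males (the labels spell the strain IRC) whose testes had been injected with lentivirus, and which were later mated with untreated females before tissue was collected. In the F0_5251KD group the virus carried a mix of 3 short hairpin RNAs (shRNAs) against the long non-coding RNA lncRNA5251 in the LV3 backbone, and F0_3NC received the negative control of that backbone. In the F0_5251OV group the full-length lncRNA5251 was carried by the LV5 backbone, and F0_5NC received that vector without insert. Each group had 3 libraries, 12 in all, and every library, controls included, came from a testis that had been injected with virus. Injection reaches whichever cells of the testis take up the virus, and the RNA came from whole tissue. The labels do not say whether the 3 libraries of a group were separate animals, so the spread behind each p-value may be technical. The knockdown and overexpression of lncRNA5251 itself were not analysed here.

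Glucocorticoid hormone enters cells freely and binds the receptor Nr3c1, which waits in the cytoplasm in a complex with heat shock proteins, moves to the nucleus, and raises or lowers the transcription of target genes. Hsd11b1 regenerates active hormone from its inactive form inside cells. In the testis the hormone is known for acting on Leydig cells, the interstitial cells that make testosterone, and on Sertoli and other somatic cells.

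The 12 libraries held 15431383 to 16355720 estimated counts, a ratio of 1.06, so depth was nearly equal. Known markers of Leydig, Sertoli, peritubular, macrophage, endothelial and germ cells were all detected, and none of them was at 0 in all libraries. By chi-square per gene, libraries of 1 group differed by 3.73 to 20.2, more than sampling noise, and none was counted as a repeat of another. Replicate 2 of F0_3NC stood farthest from its group, at 17.72 and 20.2 from the others, which differed from each other by 3.73. Expression is given as CPM (a gene's share of the library's counts, scaled up to a fixed total and adjusted by the TMM method) when libraries are compared and as FPKM, which divides by transcript length, when genes are compared. Differences were tested with the quasi-likelihood F test of edgeR over 16296 genes, and a gene was called changed at a Benjamini-Hochberg adjusted p under 0.05. In whole tissue, fewer cells of a type and less RNA per cell cannot be told apart.

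On the FPKM scale, averaged over the 12 libraries, Klf9 was the highest member at 15.15 ± 1.16 (SD, n = 12), followed by Fkbp5 at 13.97 ± 1.88, and the ranges of these neighbours overlapped. Tsc22d3 came next at 6.59 ± 0.83, with no library in the range of either. Sgk1 had 3.25 ± 0.72, Cebpd 2.55 ± 1.11, Nr3c1 1.99 ± 0.24 and Pdk4 1.34 ± 0.57, and each of these overlapped its neighbour in that order. Hsd11b1 was the lowest at 0.36 ± 0.11 FPKM, and only 1 of its libraries (0.54, replicate 3 of F0_3NC) reached the lowest of Pdk4 (0.51). Klf9 thus stood above 74.8% of the genes of the table and Hsd11b1 above 25.3%. The members also differed in how steady they were: the coefficient of variation of CPM over the 12 libraries was 8.1% for Klf9, 10.6% for Tsc22d3, 10.7% for Nr3c1, 11.4% for Fkbp5 and 19.7% for Sgk1, but 42.7% for Pdk4 and 43.2% for Cebpd, and 31.2% for Hsd11b1, which had few counts. The highest library exceeded the lowest 1.34-fold for Klf9, 4.04-fold for Cebpd, 4.67-fold for Pdk4 and 5.2-fold for Hsd11b1.

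**Figure D1:**
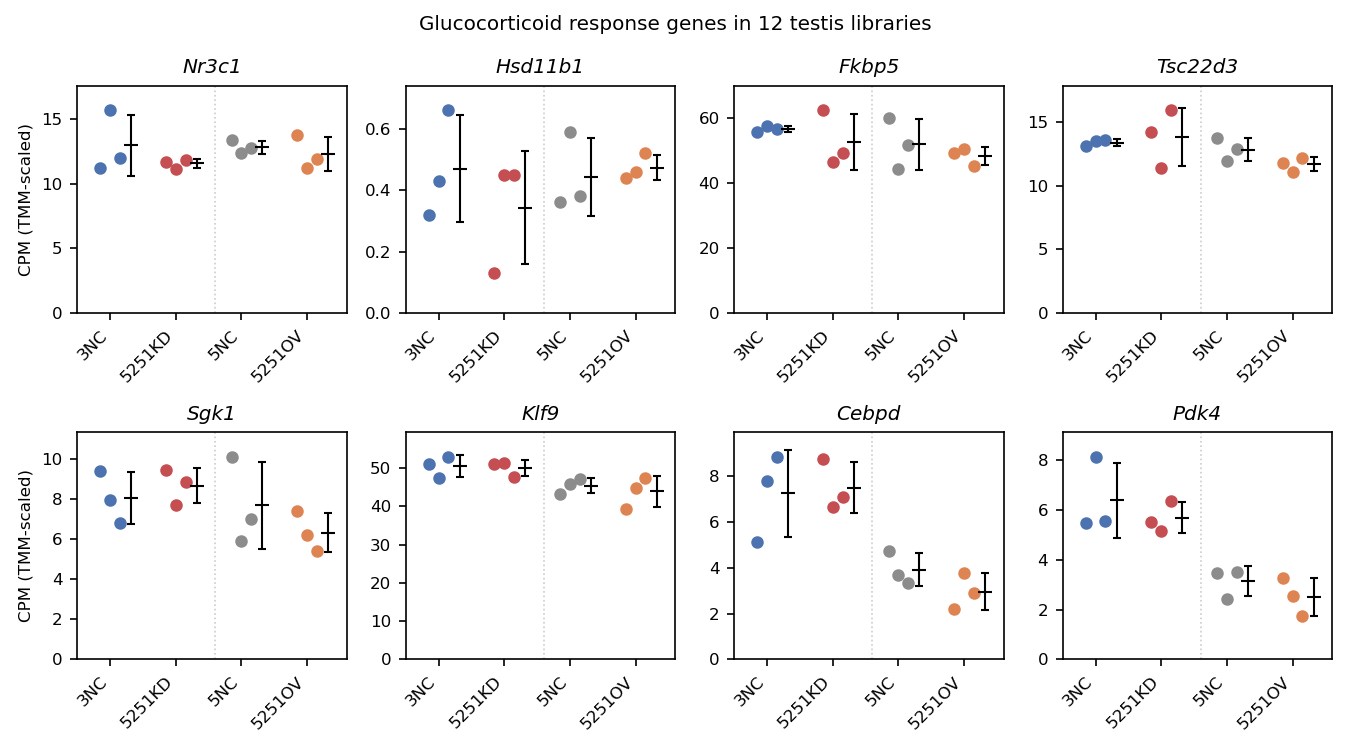
CPM (TMM-scaled, linear axes from 0) of each member in the 12 libraries, by group, with the LV3 groups left and the LV5 groups right of the dotted line; points are libraries in the order of their numbers, and bars are the mean ± SD of 3. Every LV3 library lies above every LV5 library for Cebpd and Pdk4, while the LV3 and LV5 libraries of the other 6 members overlap.

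Nr3c1 (gene ID 14815; chromosome 18, 39410545 to 39519421 in RefSeq GRCm38.p6) codes for the glucocorticoid receptor, the transcription factor through which the hormone acts. Its level was 11.21, 15.68 and 12.02 CPM in the F0_3NC libraries and 11.69, 11.15 and 11.87 CPM in the F0_5251KD libraries. In the LV5 groups it was 13.36, 12.35 and 12.79 CPM in F0_5NC and 13.78, 11.22 and 11.95 CPM in F0_5251OV. Only replicate 2 of F0_3NC lay above 14 CPM, and the 4 groups overlapped. The log2 fold change was -0.17 (SE 0.13, 95% interval -0.45 to 0.12, edgeR adjusted p = 0.897) under knockdown and -0.059 (SE 0.13, interval -0.34 to 0.23, adjusted p = 0.911) under overexpression. Between the controls it was 0.016 (interval -0.27 to 0.30, adjusted p = 0.966), with a sign that turned under other scalings. None of these differences was larger than the spread between libraries.

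Hsd11b1 (gene ID 15483; chromosome 1, 193221640 to 193264045), the reductase that makes active hormone from its inactive form, was close to the limit of detection. It had 2 to 10 counts in a library and failed the filter on low counts, so 7 of the 8 members entered the test. Summed over the 3 libraries of a group, it had 22 counts in the LV3 control F0_3NC (exact Poisson 95% interval 13.8 to 33.3) against 16 in F0_5251KD (9.1 to 26.0), and 21 in the LV5 control F0_5NC (13.0 to 32.1) against 22 in F0_5251OV (13.8 to 33.3), and these intervals, which cover counting error only, overlapped. As CPM it was 0.32, 0.43 and 0.66 in the F0_3NC libraries and 0.13, 0.45 and 0.45 in those of F0_5251KD. On the LV5 side it was 0.36, 0.59 and 0.38 in F0_5NC against 0.44, 0.46 and 0.52 in F0_5251OV. No difference was detectable at this depth: the two-sided exact permutation p was 0.6 for knockdown, 0.8 for overexpression and 0.7 between the controls, where 3 against 3 libraries cannot go below 0.1. Hsd11b1 is known from Leydig cells, and the summed level of 7 Leydig markers was between 1431.07 and 3024.4 CPM in the same libraries.

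The knockdown was compared with the control of its own backbone to find whether less lncRNA5251 moved the glucocorticoid response. None of the 7 tested members was called, beside 0.0245% of all genes (4 of 16296, all higher). None passed an unadjusted p of 0.05, where 773 of all genes did, and DESeq2 called 0 as well. Of the 7, 3 had a higher and 4 a lower estimate, with a median log2 fold change of -0.01 beside -0.004 over all genes. No member had groups that did not overlap, against 11.8% of all genes. Overexpression gave 0 calls by edgeR and DESeq2 and none at an unadjusted p of 0.05, where 0% of all genes were called and 1429 genes had an unadjusted p under 0.05. All 7 estimates were lower in F0_5251OV than in F0_5NC, with a median of -0.14 beside -0.002 over all genes, and again no member had groups apart, against 13.9% of all genes. Markers of the somatic cells had lower estimates in F0_5251OV too: 7 of 7 Leydig (median log2 fold change -0.22), 8 of 8 Sertoli (-0.23), 6 of 6 peritubular (-0.42), 6 of 6 endothelial (-0.18), 6 of 7 macrophage (-0.48) and 4 of 4 tested blood markers (-1.11), while 5 of 5 germ cell markers were higher (0.09). None of these markers was called, and their part in the members' estimates was not tested. Whether both treatments moved a member differently was tested as the difference of the knockdown and overexpression effects: 0 of 7 members were called by either tool and none at an unadjusted p of 0.05, beside 0% of all genes called and 1842 at an unadjusted p under 0.05.

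Fkbp5 (gene ID 14229; chromosome 17, 28398753 to 28486149) codes for a co-chaperone of Hsp90 that lowers the receptor's affinity for hormone, and it is among the most used readouts of the response. It was 55.64, 57.56 and 56.65 CPM in F0_3NC and 62.24, 46.33 and 49.03 CPM in F0_5251KD. The F0_5NC libraries had 59.89, 44.18 and 51.53 CPM and those of F0_5251OV 49.24, 50.29 and 45.15 CPM. The F0_3NC libraries were close together (SD 0.96) while those of the other groups spread over each other. The log2 fold change was -0.11 under knockdown (SE 0.12, interval -0.37 to 0.15, edgeR adjusted p = 0.908) and -0.11 under overexpression (SE 0.12, interval -0.37 to 0.16, adjusted p = 0.801), and 0.13 between the controls (interval -0.13 to 0.39, adjusted p = 0.667).

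Tsc22d3 (gene ID 14605; chromosome X, 140539528 to 140600522), also known as GILZ, codes for a leucine zipper protein with anti-inflammatory action. Its level was 13.07, 13.49 and 13.54 CPM in F0_3NC and 14.23, 11.40 and 15.90 CPM in F0_5251KD, so the knockdown libraries lay on both sides of the controls. It was 13.72, 11.89 and 12.85 CPM in F0_5NC and 11.78, 11.09 and 12.14 CPM in F0_5251OV, where the lowest control lay inside the range of the overexpression libraries. The log2 fold change was 0.051 under knockdown (SE 0.12, interval -0.21 to 0.31, edgeR adjusted p = 0.95) and -0.14 under overexpression (SE 0.12, interval -0.40 to 0.13, adjusted p = 0.75).

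Sgk1 (gene ID 20393; chromosome 10, 21882184 to 21999903), a kinase that regulates ion channels and transporters, had 9.40, 7.96 and 6.80 CPM in F0_3NC and 9.46, 7.71 and 8.87 CPM in F0_5251KD. The F0_5NC libraries had 10.12, 5.94 and 7.03 CPM, so they alone spanned nearly the whole range of the gene, and those of F0_5251OV had 7.39, 6.20 and 5.43 CPM. Its log2 fold change was 0.11 under knockdown (SE 0.20, interval -0.32 to 0.53, edgeR adjusted p = 0.934) and -0.28 under overexpression (SE 0.20, interval -0.71 to 0.15, adjusted p = 0.673). The difference of both effects, 0.39 (SE 0.28, interval -0.21 to 1, adjusted p = 0.576), did not pass the test.

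Klf9 (gene ID 16601; chromosome 19, 23141226 to 23168129), a zinc finger transcription factor, was the steadiest member. It had 51.07, 47.35 and 52.95 CPM in F0_3NC and 51.00, 51.32 and 47.62 CPM in F0_5251KD. In F0_5NC it was 43.36, 45.89 and 47.05 CPM, and in F0_5251OV 39.40, 44.88 and 47.41 CPM. Under knockdown the log2 fold change was -0.014 (SE 0.086, interval -0.20 to 0.17, edgeR adjusted p = 0.982), and under overexpression it was -0.05 (SE 0.086, interval -0.24 to 0.14, adjusted p = 0.875). Each F0_3NC library was above each F0_5NC library, but the log2 fold change between them was small at 0.15 (SE 0.086, interval -0.03 to 0.34, adjusted p = 0.486).

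The receptor binds DNA as a pair at a palindrome made of 2 copies of a 6-base element. Windows from 250 bases before to 50 after the gene starts of RefSeq (GRCm38.p6) were searched on both strands for the hexamer AGAACA, whose reverse complement is TGTTCT, and for the paired element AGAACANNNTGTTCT, which holds the hexamer on both strands. The 8 members matched 13 windows of 6 genes. For Cebpd and the receptor gene there was no entry. The hexamer was found in 4 of these 13 windows, 3 of the 6 of Sgk1 and 1 of the 3 of Tsc22d3, and in 19% of all 32851 windows. The paired element was found in 3 of all windows (0.00913%), and 1 of them belonged to Sgk1, where it began 189 bases before a gene start at 21993890. A match is a description of letters, not evidence of binding. The 250 bases before this start, before the Tsc22d3 start at 140600522, whose hexamer began 185 bases before it, and before the Pdk4 start at 5496278, which stands for a member whose level differed between the backbones and whose window had no match, are shown with hexamers in capitals.
Sgk1, chr10:21993640-21993889, plus strand: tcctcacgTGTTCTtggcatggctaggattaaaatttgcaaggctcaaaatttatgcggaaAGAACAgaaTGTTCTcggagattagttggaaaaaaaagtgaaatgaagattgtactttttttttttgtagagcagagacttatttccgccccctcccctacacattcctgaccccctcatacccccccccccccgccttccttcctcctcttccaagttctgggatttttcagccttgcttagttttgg
Tsc22d3, chrX:140600523-140600772, minus strand: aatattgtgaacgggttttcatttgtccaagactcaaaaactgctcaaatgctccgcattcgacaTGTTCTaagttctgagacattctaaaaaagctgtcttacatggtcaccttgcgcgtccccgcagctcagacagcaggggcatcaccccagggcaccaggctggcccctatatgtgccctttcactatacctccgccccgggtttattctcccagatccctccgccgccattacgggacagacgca
Pdk4, chr6:5496279-5496528, minus strand: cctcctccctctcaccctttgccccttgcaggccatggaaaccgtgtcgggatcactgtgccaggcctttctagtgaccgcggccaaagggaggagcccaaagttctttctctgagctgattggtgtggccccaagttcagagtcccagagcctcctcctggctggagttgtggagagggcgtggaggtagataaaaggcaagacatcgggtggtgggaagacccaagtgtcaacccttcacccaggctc

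Cebpd (gene ID 12609; chromosome 16, 15887286 to 15889545) codes for a basic leucine zipper transcription factor that acute stress and inflammation also induce. Its level was 5.15, 7.78 and 8.85 CPM in F0_3NC and 8.76, 6.67 and 7.09 CPM in F0_5251KD, and these groups overlapped. In F0_5NC it was 4.73, 3.70 and 3.32 CPM and in F0_5251OV 2.19, 3.78 and 2.91 CPM, which overlapped as well. The log2 fold change was 0.049 under knockdown (SE 0.23, interval -0.44 to 0.53, edgeR adjusted p = 0.973) and -0.41 under overexpression (SE 0.25, interval -0.95 to 0.13, adjusted p = 0.632). The estimated counts of Cebpd were not whole in any of the 12 libraries, as can arise when a read matches several genes. How its reads were assigned was not tested, and its values are uncertain to that extent. The counts of the other 7 members were whole in all libraries.

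Pdk4 (gene ID 27273; chromosome 6, 5483351 to 5496278) codes for a kinase that shuts off pyruvate dehydrogenase and so spares glucose, and fasting and glucocorticoids are both known to raise it. It had 5.47, 8.14 and 5.55 CPM in F0_3NC and 5.53, 5.18 and 6.38 CPM in F0_5251KD. Its level was 3.47, 2.44 and 3.52 CPM in F0_5NC and 3.26, 2.54 and 1.74 CPM in F0_5251OV. Within each backbone the groups overlapped, and across the backbones they did not. The log2 fold change was -0.17 under knockdown (SE 0.23, interval -0.65 to 0.32, edgeR adjusted p = 0.913) and -0.32 under overexpression (SE 0.25, interval -0.87 to 0.22, adjusted p = 0.71).

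F0_3NC and F0_5NC, neither of which carried a lncRNA5251 construct, were compared to measure how far the controls of both backbones lay apart. The paper lists a control sequence beside its knockdown shRNAs, while F0_5NC had no insert. An effect of such a control insert cannot be told apart from one of the backbone. All 7 tested members had a higher estimate in F0_3NC, with a median log2 fold change of 0.13 beside 0 over all genes. Pdk4 was 6.39 ± 1.52 CPM (SD, n = 3) in F0_3NC and 3.14 ± 0.61 CPM in F0_5NC, a fold of 2.03 (log2 1.02, SE 0.24, interval 0.51 to 1.53), and Cebpd was 7.26 ± 1.90 CPM and 3.92 ± 0.73 CPM, a fold of 1.85 (log2 0.89, SE 0.24, interval 0.38 to 1.39). Neither passed edgeR's test over all genes (adjusted p = 0.132 for Pdk4 and 0.206 for Cebpd), although their unadjusted p was 0.00079 and 0.00225. With edgeR 0 of 7 members were called, 2 had an unadjusted p under 0.05 beside 1936 of all 16296 genes, and DESeq2 called 1, Pdk4 (adjusted p = 0.0334). Of all genes edgeR called 0.331%, 45 higher and 9 lower, while the share called by DESeq2 over all genes was not counted. The groups did not overlap for 3 of the 7, Klf9, Cebpd and Pdk4, where 17% of all genes did not overlap. Without replicate 2 of F0_3NC the log2 fold change was 0.81 for Pdk4 and 0.84 for Cebpd. Over the alternatives the adjusted p went up to 0.432 for Pdk4 and 0.465 for Cebpd. Among alternatives that compared the controls themselves, only DESeq2 for Pdk4 passed, and none passed for Cebpd.

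When the 6 LV3 libraries (F0_3NC and F0_5251KD) were set against the 6 LV5 libraries (F0_5NC and F0_5251OV) in the same fit, Cebpd and Pdk4 were called. Cebpd was 2.16-fold higher (log2 1.11, SE 0.17, interval 0.75 to 1.48, edgeR adjusted p = 0.00463) and Pdk4 2.14-fold higher (log2 1.10, SE 0.17, interval 0.73 to 1.46, adjusted p = 0.00535), each with all 6 LV3 libraries above all 6 LV5 libraries. These were 2 of 7 members, beside 0.706% of all genes called (115, of which 90 were higher), and the same 2 had libraries that did not overlap, beside 0.749% of all genes. Klf9 was slightly higher (log2 0.17, SE 0.061, interval 0.04 to 0.30) and did not pass the test (adjusted p = 0.564), and the other members had adjusted p between 0.869 and 0.984. This comparison uses the libraries of the control comparison again and is no independent support of it. Each side also held a treated group, knockdown in LV3 and overexpression in LV5, so any effect of these treatments is part of this difference. No batch is named in the labels, and an effect of the backbone cannot be told apart from one of handling or time that went with it. Replicate 2 of F0_3NC, the library farthest from its group, did not carry the result: without it the log2 difference was 1.09 for Cebpd and 0.99 for Pdk4, each with an edgeR adjusted p of 0.0134.

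**Figure D2:**
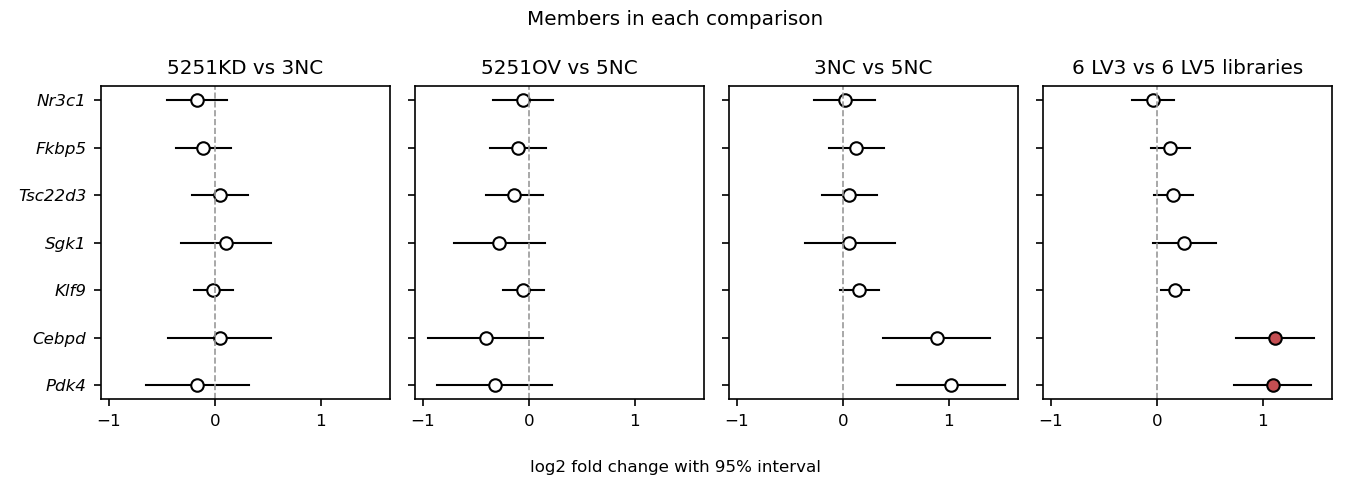
Log2 fold change (edgeR) with its 95% interval for the 7 tested members in 4 comparisons; red points passed an adjusted p of 0.05 and white points did not. Every interval of the knockdown and overexpression panels crosses 0, while Cebpd and Pdk4 sit near 1 between the controls and between the backbones, and pass the threshold in the last panel.

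Other genes of the pathway were described from 5 lists of 51 genes in all, of which 42 could be tested. Knockdown called 0 of the 42 with edgeR, 8 had an unadjusted p under 0.05 beside 773 of all 16296 genes, and DESeq2 called 1. That gene was Dusp1, a phosphatase that switches off MAP kinases, which had the smallest p: it was 16.29, 18.36 and 17.30 CPM in F0_3NC and 23.31, 24.30 and 28.79 CPM in F0_5251KD (log2 0.56, SE 0.12, edgeR adjusted p = 0.427, DESeq2 adjusted p = 0.0397). The groups of Dusp1 did not overlap, but it did not pass the edgeR test. How many of all genes DESeq2 called was not counted, so its calls of pathway genes have no background here. Overexpression called 0 with edgeR, 3 had an unadjusted p under 0.05 beside 1429 of all 16296 genes, and DESeq2 called 1, Ptgs2, a gene that edgeR's filter had removed for its low counts. The smallest p among the tested genes was that of Nfkbia, the inhibitor of NF-kappaB, at 16.47, 12.02 and 13.36 CPM in F0_5NC and 11.03, 10.44 and 10.46 CPM in F0_5251OV (log2 -0.39, SE 0.12, adjusted p = 0.526). It also had the smallest p for the difference of the effects (log2 0.69, SE 0.17, adjusted p = 0.352), where 0 pathway genes were called by edgeR or DESeq2 and 6 had an unadjusted p under 0.05, beside 1842 of all 16296 genes.

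Between the controls 3 of the 42 pathway genes were called by edgeR, all higher in F0_3NC, beside 0.331% of all genes. An unadjusted p under 0.05 was found for 7 of the 21 tested induced genes, 3 of the 4 tested repressed genes and 1 of the 7 chaperone genes. It was found for none of the hormone supply and coregulator genes, and for 1936 of all 16296 genes. DESeq2, whose share over all genes was not counted, called 4, the same 3 and the metallothionein Mt2 (log2 0.305, adjusted p = 0.0343). Errfi1, a feedback inhibitor of the EGF receptor, had 83.72, 87.77 and 75.86 CPM in F0_3NC and 24.56, 26.22 and 21.48 CPM in F0_5NC (log2 1.78, SE 0.099, edgeR adjusted p = 7.82e-07). Dusp1 had 9.10, 9.51 and 8.63 CPM in F0_5NC, below all F0_3NC libraries (log2 0.93, SE 0.13, adjusted p = 0.00422). Ccl2, a chemokine that draws monocytes and that glucocorticoids are known to repress, had 3.48, 3.53 and 2.51 CPM in F0_3NC and only 0.24, 0.13 and 0.0 CPM in F0_5NC (log2 4.57, SE 0.48, adjusted p = 0.000394), so this fold rests on very few counts in F0_5NC. With all 6 libraries of each backbone 5 were called by edgeR, all higher in LV3, beside 0.706% of all genes. They were these 3, Cebpb, a relative of Cebpd (log2 1.30, adjusted p = 0.0112), and the cytokine Il1b (log2 0.91, adjusted p = 0.0233). Errfi1, Dusp1 and Cebpb stood in the list of induced genes and Ccl2 and Il1b in the list of repressed genes. Between the backbones 15 of the 21 tested induced genes had higher estimates in LV3 (median log2 fold change 0.13). So had 4 of the 4 tested repressed genes (median 0.75). The cause of these differences was not tested.

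By list, the 21 tested genes of the other induced group had a median log2 fold change of 0.06 under knockdown (14 higher), -0.09 under overexpression (6 higher) and -0.02 between the controls (10 higher). The 4 tested genes of hormone supply, among them the mineralocorticoid receptor Nr3c2, had medians of -0.09, -0.04 and 0.02. The 7 chaperone genes had medians of 0.01, -0.02 and -0.03, and the 6 coregulator genes -0.03, -0.06 and -0.01, with none called in any comparison. The 4 tested repressed genes had 0.08, 0.08 and 0.73.

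**Figure D3:**
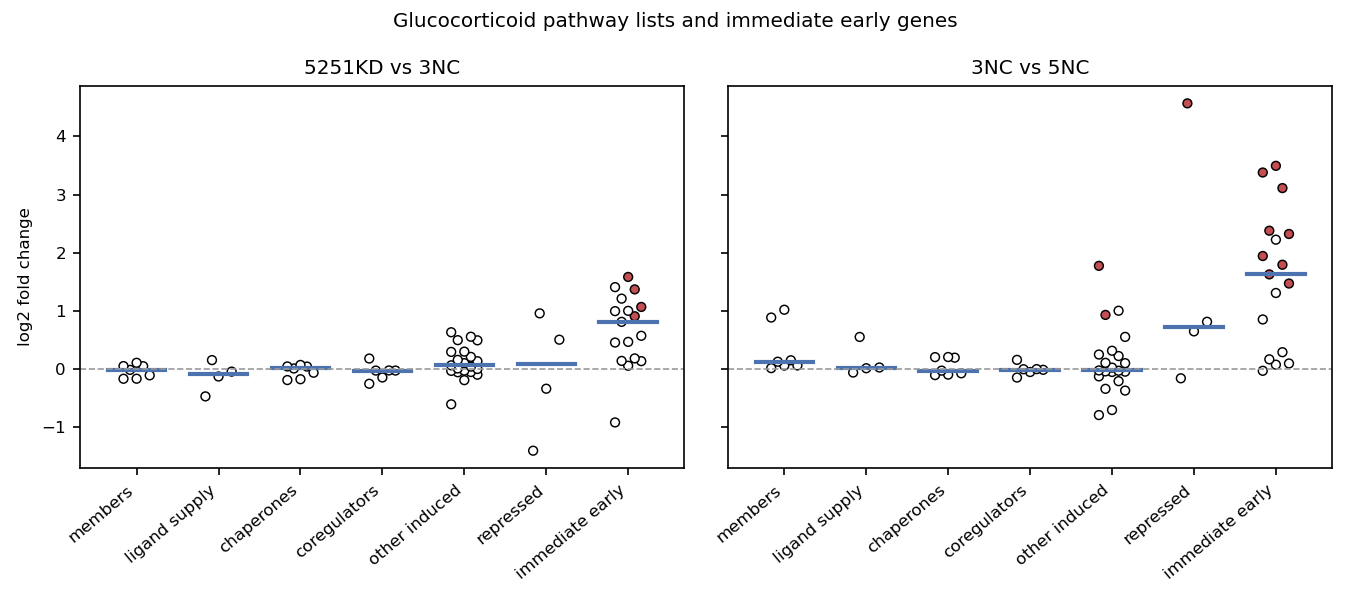
Log2 fold change (edgeR) of each tested gene by list, for F0_5251KD against F0_3NC (left) and F0_3NC against F0_5NC (right); red points passed an adjusted p of 0.05 and blue lines are list medians. Of the glucocorticoid lists, called points appear only in the right panel, 2 among the other induced genes and 1 among the repressed genes, while 4 and 9 of the immediate early genes are red in the left and right panel.

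Immediate early genes, which respond within minutes to many stimuli, had a higher summed level in every LV3 library than in any LV5 library. The summed level of 17 such genes was 341.83 to 391.21 CPM in F0_3NC and 537.71 to 598.66 CPM in F0_5251KD, against 236.64 to 259.93 CPM in F0_5NC and 204.66 to 276.24 CPM in F0_5251OV. Between the controls 9 of the 17 were called, all higher in F0_3NC, beside 0.331% of all genes. Between the backbones 13 were called, all higher in LV3, beside 0.706% of all genes. Under knockdown 4 were called, all higher, and these were the only genes called of all those tested (0.0245%). The summed level was also higher in F0_5251KD than in F0_3NC. Cebpd and Pdk4 did not pass the test in that comparison, with wide intervals (-0.44 to 0.53 and -0.65 to 0.32). Whether these 2 members follow the immediate early genes was not tested. Markers of the epididymis, 4 of 6 listed genes, had a summed level of 1.68 to 8.85 CPM in the LV3 libraries and 4.59 to 111.8 CPM in the LV5 libraries, and blood markers 53.85 to 106.63 CPM against 37.15 to 66.06 CPM. Between the backbones 2 of the 3 tested epididymis markers were called, both lower in LV3. They were Crisp1 (log2 -6.655, edgeR adjusted p = 0.0131) and Spink8 (log2 -3.794, adjusted p = 0.00115). Spink8 was also called between the controls (log2 -3.785, edgeR adjusted p = 0.0235). No blood marker was called in either comparison. The summed level of 7 adipocyte markers, a cell type with much Pdk4 and Cebpd, was 14.19 to 38.74 CPM and overlapped between the backbones. Between the controls 4 of its 6 tested genes had lower and 2 higher estimates in F0_3NC. Of these 1 was called, the lipid droplet gene Plin1, which was lower (log2 -1.46, SE 0.25, edgeR adjusted p = 0.0219). Between the backbones 5 of the 6 were higher in LV3 and none was called. Of the 6 peritubular markers, Tagln was called between the backbones, higher in LV3 (log2 0.708, edgeR adjusted p = 0.00239). None of the Leydig, Sertoli, macrophage, endothelial and germ cell markers was called there. No marker of these lists was at 0 in all libraries, and their part in the result was not tested.

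The members did not vary as 1 block over the 12 libraries. Pearson's r of log2 CPM between Cebpd and Pdk4 was 0.81 over 12 libraries, but 0.19 within the 6 LV3 and 0.14 within the 6 LV5 libraries, so the pooled value follows the step between the backbones. Fkbp5 and Sgk1 had r = 0.70 over all libraries, 0.21 within LV3 and 0.92 within LV5. The receptor Nr3c1 and Pdk4 had 0.20 over all, yet 0.95 within LV3, where replicate 2 of F0_3NC was highest in both, and 0.67 within LV5. Klf9 and Pdk4 had 0.47 over all and -0.84 and -0.49 within the backbones. Libraries share depth and composition, and these values are descriptions only.

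Among all genes of at least 1 CPM, those whose pattern over the 12 libraries was most like that of Cebpd were Thbd (r = 0.94, with 0.73 within LV3 and 0.77 within LV5), Elmsan1 (0.93, with 0.67 and 0.91) and Nr4a3 (0.93, with 0.56 and 0.73). For Pdk4 they were Insig1 (0.94, with 0.46 and 0.83 within the backbones), Msmo1 (0.94, with 0.49 and 0.86) and F3 (0.93, with 0.70 and 0.67). The lists of these 2 members shared no gene. Klf9 was most like Hbegf (0.95), Lrrc10b (0.89) and Pip5kl1 (0.89), and Nr3c1 most like Zfp994 (0.95), Dennd4c (0.93) and Iws1 (0.91). The nearest genes of Fkbp5 were Etv3 (0.90), Creb3l2 (0.89) and S100a10 (0.89), those of Tsc22d3 Slc12a4 (0.92), Pdss1 (0.86) and Mrpl33 (0.86), and those of Sgk1 Slc7a8 (0.93), Cavin1 (0.92) and Adcy9 (0.91). For Hsd11b1, whose low counts make any such value unsteady, they were Paf1 (0.85), Sdad1 (0.85) and Nmnat1 (0.84). Each r was picked as among the highest of many genes, and none was tested.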

How the data were processed

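Testis RNA of 12 libraries in 4 groups was measured. The authors enriched mRNA with oligo(dT), made cDNA with random hexamers with no named strand step, sequenced it, and aligned it to reference genes with SOAPaligner (build mm10 per the labels). The deposited table held, for each gene, estimated counts and FPKM of every library. Of the counts, 12% were not whole, and the tool behind them is not stated in the sources used here. Left unused were 18 per-sample columns that could be tied to no sample and 14 columns of averages. Counts were rounded and fitted with edgeR 4.0.16 in R 4.3.3 (TMM factors 0.97 to 1.078, filterByExpr, 1 fit of 4 groups, 8 residual degrees of freedom, two-sided, Benjamini-Hochberg over 16296 genes), and checked on simulated data. FPKM was tested with limma 3.58.1 on log2(FPKM + 1) and log2(FPKM + 0.1). Further alternatives were leaving out each library, a replicate block, fitting the compared groups alone, DESeq2 1.42.0, upper-quartile scaling, and requiring 1 CPM in 3 libraries or no filter. Correlations used log2 CPM with a prior count of 2. Named genes were the members, the pathway genes past the threshold or else with the smallest p, and the 3 most alike genes of each member. The members, lists and tests were chosen with earlier results of these data known.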

Additional observations from a re-analysis of the deposited data

How the results depend on the processing

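Calls of members under knockdown, overexpression and their difference stayed at 0 under every alternative run. DESeq2 called 1 member (Pdk4) and 4 pathway genes (Mt2 in addition) between the controls, and 1 pathway gene each under knockdown (Dusp1) and overexpression (Ptgs2, log2 -6.39), and all 6 libraries of each backbone called 2 members and 5 pathway genes in place of 0 and 3. The calls of DESeq2 over all genes were not counted, so the shares given for edgeR are no background for them. Among the values of single genes under settings that kept all libraries, 274 kept their direction and side of the threshold, 6 passed it in addition and 12 changed sign. These settings include all LV3 against all LV5 libraries, a different comparison, in which Cebpd, Pdk4, Cebpb and Il1b passed in addition. The other additional passes were with DESeq2, Dusp1 under knockdown and Pdk4 between the controls. The changed signs were those of estimates close to 0: Fkbp5 for the difference of the effects (0.01 with DESeq2, 0.026 with upper-quartile scaling, 0.016 without a filter, 0.022 with 1 CPM, 0.035 and 0.036 with limma), Nr3c1 between the controls (0 with upper-quartile scaling, -0.028 and -0.043 with limma, -0.037 with all libraries) and Klf9 under knockdown (0.001 with limma at both pseudocounts). Leaving out 1 library changed 23 signs and left 241 values unchanged in direction and call. The ranges were -0.15 to 0.214 for Cebpd, -0.271 to 0.049 for Pdk4, -0.057 to 0.023 for Klf9 and -0.063 to 0.17 for Tsc22d3 under knockdown. Under overexpression they were -0.209 to 0.009 for Fkbp5, -0.109 to 0.022 for Klf9 and -0.148 to 0.004 for Nr3c1. Between the controls they were -0.142 to 0.119 for Nr3c1 and -0.093 to 0.307 for Sgk1. For the difference they were -0.213 to 0.047 for Nr3c1, -0.151 to 0.102 for Fkbp5, -0.035 to 0.096 for Klf9 and -0.049 to 0.388 for Pdk4. The cause was not tested.

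Between the backbones, alternatives chosen after seeing the data kept Cebpd and Pdk4 past the threshold with DESeq2, upper-quartile scaling, limma and without each of the 12 libraries in turn. The log2 difference without a library was 1.026 to 1.222 for Cebpd and 0.99 to 1.214 for Pdk4, and with limma on log2(FPKM + 1), whose pseudocount shrinks the change of low genes, it was 0.77 and 0.601. Same-numbered libraries showed no clear shared deviation (correlations of -0.173 to 0.065). Differently numbered libraries were not compared, so this cannot settle whether the numbers pair the samples. With the replicate block, members called were 0 in each comparison and pathway genes called were 3 between the controls and 0 elsewhere, and between the backbones the adjusted p was 0.0177 for Cebpd and 0.02 for Pdk4. At 2 to 10 counts a library, no difference in Hsd11b1 could be detected, and the fold of Ccl2 rests on few counts.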
